A study of Homo sapiens with 24 samples.

Results

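ETS factors are transcription factors that share 1 DNA-binding domain and bind DNA around the core GGAA. The 10 genes described here encode ETS factors with known roles in lymphoid or other blood cells: SPI1, SPIB, SPIC, ETS1, ETS2, ELF1, FLI1, ETV6, ELK3 and GABPA. The regions described are those that the deposited lists call changed and that lie within 10 kb of a transcription start site of 1 of these genes or overlap its body, with gene models of GENCODE release 44 placed on GRCh37 (hg19). Of 26369 distinct regions in 8 lists, 20 met this rule, and 9 of the 10 genes had at least 1. Over all 20163 protein-coding genes, 58.2% had at least 1 region by the same rule. This share rose with the length of the stretch searched for each gene, its window. It was 38.6% for the 4033 genes with the shortest windows and 76.0% for the 4033 with the longest, of 102 kb and more. ETS1, ELF1, FLI1 and ETV6 are among the longest.

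ATAC-seq, in which a transposase cuts and tags open chromatin, was run on the human diffuse large B-cell lymphoma (DLBCL) lines OCI-LY3 and VAL. Cells received 30 nM AZD4573, a selective inhibitor of CDK9 (CDK9i), for 0, 3 or 8 h, and the names of the lists call the 0 h reference DMSO. Each of the 6 conditions had 4 libraries, 2 by the standard protocol from 50000 cells and 2 by Fast-ATAC, for which the labels give 5000 cells but the written protocol 50000. Each comparison set 3 h or 8 h against 0 h of the same line, so both times of a line rest on the same controls. Which of the labelled libraries, and which of the protocols, entered the calls is not given in the sources used here. Both lines are established cultures, so each stands for 1 tumour-derived line, and the labels give no engineered change for either.

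The lists hold coordinates of called regions and nothing else. A region absent from a list may have been closed, open and unchanged, or changed by less than the calling limits. The size of a change, its error and the level at 0 h are therefore not given below, and neither line could be checked against marker genes. No result below has a p-value. Counts of called genes are set beside the same count over all protein-coding genes, and shares of regions beside those of all called regions. Depth per library is unknown from these files.

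In B cells SPI1 (PU.1) and SPIB bind similar sequences, often next to IRF4 or IRF8, and act together in B-cell receptor signalling and germinal-centre programmes. ETS1 and FLI1 are close relatives that act in lymphocyte development, and ELF1 and GABPA bind the promoters of many broadly expressed genes. ETV6 and ELK3 act mainly as repressors. CDK9 phosphorylates RNA polymerase II and its pausing factors and so releases paused polymerase into elongation.

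The sequences below were read from GRCh37 and run 5' to 3' on the strand of the gene. They show the stretches at which the ETS factor genes themselves were called: the 200 bases before the start sites of SPIB and SPIC, and the central 200 bases of the SPI1 region, of the intronic FLI1 region, of both ETS1 regions and of 4 neighbouring regions of ETV6. The promoter region of FLI1 is not printed, since its centre lies in an exon. None overlaps a UTR or a coding exon. Capitals mark GGAA or its reverse complement TTCC, the core of an ETS site.

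SPIB, bases before the start site, chr19:50921995-50922194, plus strand: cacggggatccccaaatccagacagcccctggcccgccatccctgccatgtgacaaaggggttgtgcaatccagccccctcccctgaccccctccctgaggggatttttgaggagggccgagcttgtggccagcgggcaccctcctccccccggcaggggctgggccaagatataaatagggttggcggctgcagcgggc
SPIC, bases before the start site, chr12:101868914-101869113, plus strand: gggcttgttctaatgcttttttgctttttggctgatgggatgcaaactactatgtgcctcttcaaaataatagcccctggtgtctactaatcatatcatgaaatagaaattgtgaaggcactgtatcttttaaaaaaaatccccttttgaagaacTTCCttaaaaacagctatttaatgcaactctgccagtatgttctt
SPI1, centre of the promoter region, in intron 1, chr11:47399345-47399544, minus strand: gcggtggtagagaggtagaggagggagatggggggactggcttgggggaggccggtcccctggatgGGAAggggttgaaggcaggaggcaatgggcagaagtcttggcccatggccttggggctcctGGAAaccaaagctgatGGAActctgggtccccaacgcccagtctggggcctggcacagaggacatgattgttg
FLI1, centre of the region in intron 1, chr11:128574430-128574629, plus strand: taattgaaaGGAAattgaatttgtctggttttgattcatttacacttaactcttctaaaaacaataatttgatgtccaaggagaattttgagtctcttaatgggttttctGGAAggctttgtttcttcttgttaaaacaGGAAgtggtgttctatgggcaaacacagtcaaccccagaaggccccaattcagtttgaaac
ETS1, centre of the region in intron 2, chr11:128434042-128434241, minus strand: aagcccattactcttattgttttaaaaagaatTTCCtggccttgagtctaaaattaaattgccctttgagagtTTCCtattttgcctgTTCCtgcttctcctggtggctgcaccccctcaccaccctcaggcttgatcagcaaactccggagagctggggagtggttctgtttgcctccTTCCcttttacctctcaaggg
ETS1, centre of the region in intron 3, chr11:128422554-128422753, minus strand: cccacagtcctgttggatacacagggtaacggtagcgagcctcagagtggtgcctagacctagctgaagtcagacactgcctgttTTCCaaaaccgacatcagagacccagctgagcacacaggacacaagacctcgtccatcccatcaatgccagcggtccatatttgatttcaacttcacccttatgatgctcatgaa
ETV6, centre of the region in intron 1, chr12:11902927-11903126, plus strand: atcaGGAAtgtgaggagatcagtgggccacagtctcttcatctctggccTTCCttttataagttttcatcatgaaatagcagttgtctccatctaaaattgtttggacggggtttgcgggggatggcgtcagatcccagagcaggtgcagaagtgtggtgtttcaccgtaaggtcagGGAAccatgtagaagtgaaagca
ETV6, centre of the region in intron 2 that increased in OCI-LY3, chr12:11906037-11906236, plus strand: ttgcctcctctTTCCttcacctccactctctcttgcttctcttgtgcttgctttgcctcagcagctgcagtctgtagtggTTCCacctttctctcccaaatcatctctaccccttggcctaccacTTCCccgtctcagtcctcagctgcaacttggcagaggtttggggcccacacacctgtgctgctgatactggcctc
ETV6, centre of the region in intron 2 that increased in VAL, chr12:11909361-11909560, plus strand: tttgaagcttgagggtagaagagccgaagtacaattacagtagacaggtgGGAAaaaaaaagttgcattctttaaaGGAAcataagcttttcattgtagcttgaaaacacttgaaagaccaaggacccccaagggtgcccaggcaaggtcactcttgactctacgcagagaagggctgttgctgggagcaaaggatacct
ETV6, centre of the region in intron 2 that decreased in VAL, chr12:11911844-11912043, plus strand: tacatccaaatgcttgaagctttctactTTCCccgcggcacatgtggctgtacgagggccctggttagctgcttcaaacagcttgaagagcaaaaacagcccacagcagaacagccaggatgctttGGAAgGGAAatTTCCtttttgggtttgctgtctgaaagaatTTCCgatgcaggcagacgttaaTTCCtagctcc

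The stretch before SPIB had 0 cores and that before SPIC had 1. The centres held 3 cores for SPI1, 3 for FLI1, 4 and 1 for the ETS1 regions, and 3, 3, 2 and 6 for the ETV6 regions in the order printed. Over the central 200 bases of all 26369 called regions the median was 2 cores with quartiles of 1 and 3, and over the 200 bases before the start sites of all protein-coding genes it was also 2, again with quartiles of 1 and 3. The core is thus common in both kinds of stretch, and a match is a description of letters and not a bound site.

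The 20 regions fell into 11 with increased and 9 with decreased accessibility after CDK9i, and no region was called in both directions. The genes of the SPI subfamily held increased regions, those of ETS1, FLI1 and GABPA held decreased regions, and ELF1 and ETV6 held regions of both kinds. ELK3 held 1 increased region and ETS2 held none. The plot of calls by gene shows every count.

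**Figure D1:**
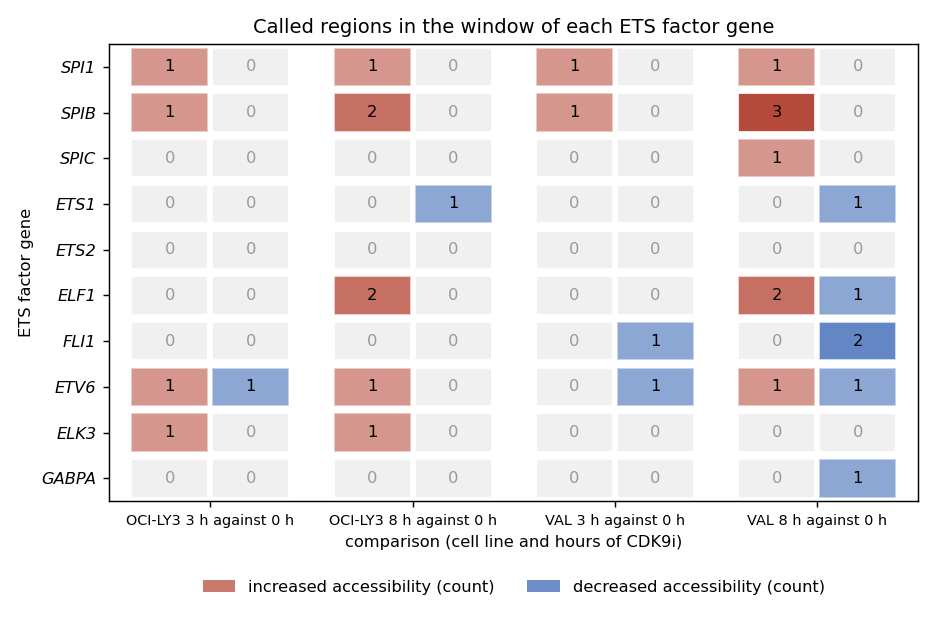
Number of called regions in the window of each ETS factor gene (rows) in the 4 comparisons with 0 h of the same line (columns), with increased accessibility in red and decreased accessibility in blue. SPI1 and SPIB have increased regions in all 4 comparisons, whereas the decreased regions of ETS1, FLI1 and GABPA stand mostly in the VAL columns. Over the whole genome the list of decreased regions at 8 h was also longer in VAL, with 9260 regions against 3463 in OCI-LY3.

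SPI1 encodes PU.1, a master regulator of myeloid and B-cell development. Its window held 1 region, chr11:47398309-47400580, which was called increased in OCI-LY3 at 3 h and 8 h and in VAL at 3 h and 8 h. The region was 2272 bp wide, had 63.5% G and C bases, and covered the start site, exon 1 with the 5' UTR and the first coding bases, and the start of intron 1. No start site of another protein-coding gene lay within 24056 bp of it.

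SPIB encodes Spi-B, the closest relative of PU.1, which is made in B cells and plasmacytoid dendritic cells. Its promoter region, chr19:50920577-50923199, was likewise called increased in all 4 comparisons. It was 2623 bp wide with 64.7% G and C bases and covered the start site and exon 1. Here a neighbour was close: a start site of POLD1, the catalytic subunit of DNA polymerase delta, lay 367 bp from its edge.

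A promoter called increased in all 4 comparisons, with a promoter taken as 1 kb on either side of a start site, was found for 618 of 20163 protein-coding genes, or 3.07%. SPI1 and SPIB are 2 of these genes. Of all called regions, 2.95% were called in 4 comparisons and 70.7% in 1. Among the 20 ETS factor regions, 2 were called in 4 comparisons, 0 in 3, 5 in 2 and 13 in 1.

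SPIB had further increased regions on either side. The region chr19:50918117-50920333, whose midpoint lay 3.0 kb before the SPIB start site, was increased in both lines at 8 h and covered a start site of POLD1. The region chr19:50933782-50936168 was increased in VAL at 8 h and covered the end of SPIB, exon 6 with the 3' UTR, together with a start site of MYBPC2, a gene of fast skeletal muscle. Both of these regions can belong to the neighbour as well as to SPIB. Chromosome 19 as a whole moved the same way, since between 97.2% and 99.6% of its called regions were increased in the 4 comparisons.

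SPIC, which is best known from red pulp macrophages of the spleen, had 1 region. This region, chr12:101868138-101869579, covered the start site and exon 1, was 1442 bp wide and was increased in VAL at 8 h. Unlike the promoter regions of SPI1 and SPIB it was poor in G and C bases, at 40.3%. The nearest start site of another protein-coding gene, ARL1, was 66588 bp away. In VAL at 8 h, 26.8% of protein-coding genes had an increased region at a promoter.

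ETS1 encodes the founding member of the family, which is abundant in T and B lymphocytes. It had 2 decreased regions, neither of them at a start site. The region chr11:128433564-128434719, in intron 2 and 23.3 kb into the gene, was decreased in OCI-LY3 at 8 h. The region chr11:128421212-128424094, in intron 3 and 34.8 kb into the gene, was decreased in VAL at 8 h and was the widest of the 20 at 2883 bp. Each line thus had 1 decreased region in ETS1 at 8 h, at different places. Neither line had a called region in ETS1 at 3 h.

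FLI1, which acts in blood and vessel development and in megakaryocytes, lies next to ETS1 on chromosome 11 and had 2 decreased regions, both of them called in VAL. The region chr11:128573887-128575172, in intron 1 and 10.6 kb past the canonical start site, was decreased at 3 h and at 8 h. The region chr11:128555744-128557503 was decreased at 8 h and lay over the farthest upstream start site of FLI1, with its midpoint 7.3 kb before the canonical one. A start site of a long noncoding RNA gene lies in the same 1760 bp, so the promoter cannot be assigned to FLI1 alone. Decreased regions at a promoter were less frequent than increased ones in the lists, with 4.59% of protein-coding genes having one in VAL at 8 h. No list held a region of FLI1 from OCI-LY3.

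ETS2, a relative of ETS1 that responds to Ras signalling, had no called region in any list. The nearest one lay 23.8 kb from its start sites and was decreased in OCI-LY3 at 8 h. Over all protein-coding genes, 41.8% had no called region.

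GABPA, the DNA-binding subunit of GABP, had 1 region. The region chr21:27115017-27115622 lay in intron 2, 8.0 kb into the gene, was 606 bp wide and was decreased in VAL at 8 h. The closest start site of any protein-coding gene was that of ATP5PF, a subunit of mitochondrial ATP synthase, 7033 bp away, against 7317 bp for GABPA itself. A further region decreased in VAL at 8 h lay 0.375 kb beyond the window.

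ELF1, which is made in T and B cells and binds many promoters, had 4 regions in both directions. The region chr13:41507250-41508704 covered exon 9, the last exon, with coding bases and 3' UTR, and was increased at 8 h in both lines. Of the regions in intron 1, chr13:41566930-41568338 was increased in OCI-LY3 at 8 h and chr13:41568403-41569566, the next one along, was increased in VAL at 8 h. The fourth, chr13:41626786-41629342, was decreased in VAL at 8 h. It lay upstream of the canonical start site, at -34.6 kb, in an intron of longer ELF1 transcripts, and its edge was 6234 bp from an ELF1 start site and 6303 bp from one of WBP4. Among all called regions on chromosome 13 the share increased was 20.6% in OCI-LY3 and 26.8% in VAL at 8 h, lower than over the whole genome, whereas ELF1 had 2 increased and 0 decreased regions in OCI-LY3 and 2 increased and 1 decreased in VAL at that time. A further region, decreased in VAL at 3 h, lay 3.33 kb beyond the ELF1 window.

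ETV6 encodes a repressor that is needed for blood stem cells in the bone marrow and is rearranged in several leukaemias. It is the longest of the 10 genes, at 246 kb, and had the most regions, 5. Of these, 4 lay close together between 100.4 and 109.3 kb past the canonical start site, and both directions occurred among them. The first, chr12:11902262-11903791 in intron 1, was decreased in VAL at 8 h. The second, chr12:11905831-11906442, was increased in OCI-LY3 at 3 h and 8 h and lay 396 bp from a start site of a shorter ETV6 transcript. The third, chr12:11909190-11909730, was increased in VAL at 8 h, and the fourth, chr12:11911414-11912472, was decreased in VAL at 3 h. Intron 2 held the second to the fourth of these. None of the 4 was called in both lines, although each line had an increased region among them. The remaining region, chr12:12047350-12049054, covered the end of exon 8, the last exon, with its 3' UTR and was decreased in OCI-LY3 at 3 h.

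ELK3, a ternary complex factor that represses serum response targets and acts in vessel growth, had 1 region, chr12:96601886-96603525. It lay in intron 1, 14.6 kb into the gene, was 1640 bp wide and was increased in OCI-LY3 at 3 h and 8 h. No list of VAL held a region of ELK3.

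**Figure D2:**
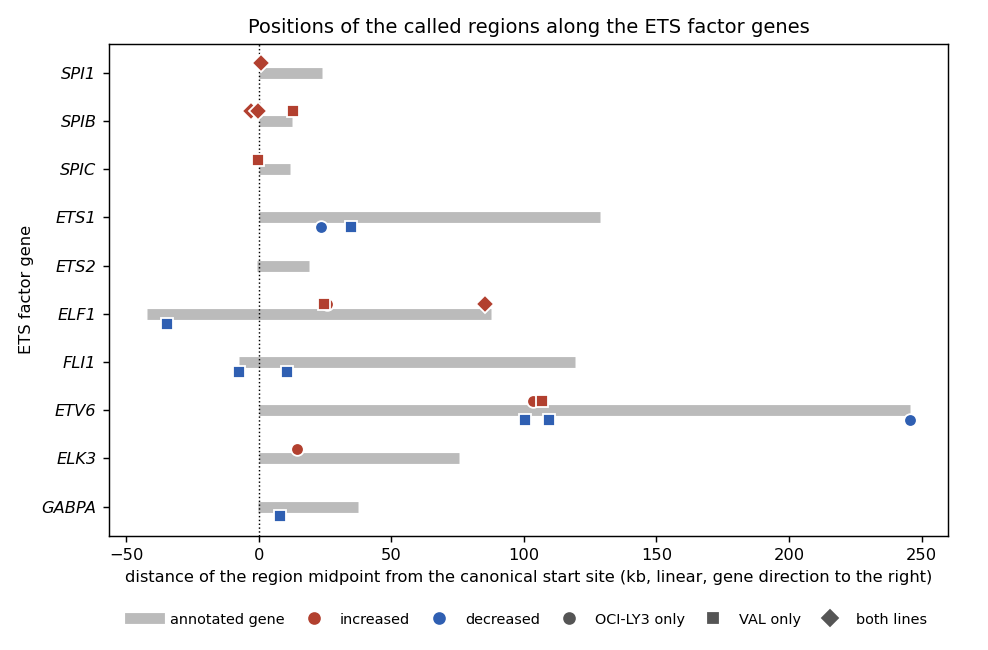
Midpoint of each called region as its distance in kb from the canonical start site of the gene (linear axis, direction of transcription to the right), with grey bars for the annotated genes, red for increased and blue for decreased accessibility, and the marker shape for the line. SPI1, SPIB and SPIC each have an increased region at the start site, the decreased regions of ETS1 and GABPA lie inside the genes, and 4 ETV6 regions cluster between 100.4 and 109.3 kb.

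By position, 11 of the 20 regions were intronic, 5 lay within 1 kb of a start site of the gene, 3 covered an exon away from a start site and 1 lay in the flank. Promoters held 4 of the 11 increased regions, those of SPI1, SPIB and SPIC and the internal start site of ETV6, and 1 of the 9 decreased regions, that of FLI1. Counting a start site of any protein-coding gene, 6 of the 11 increased regions lay within 1 kb of one, with the POLD1 and MYBPC2 start sites next to SPIB included, and 1 of the 9 decreased regions did. By that same count, 43.8% of all increased and 11.0% of all decreased regions lay within 1 kb of a start site.

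Counted by gene in OCI-LY3 at 3 h, 4 of the 10 ETS factors had an increased region, SPI1, SPIB, ETV6 and ELK3, where 11.2% of protein-coding genes had one. ETV6 had a decreased region in the same comparison, where 5.97% of protein-coding genes had one, and 13.2% of the 4033 genes with the longest windows, of 102 kb and more. These longest windows include those of ETS1, ELF1, FLI1 and ETV6. In OCI-LY3 at 8 h, the increased regions belonged to 5 factors, SPI1, SPIB, ELF1, ETV6 and ELK3, beside 19.7% of protein-coding genes. ETS1 alone of the 10 had a decreased region then, beside 8.81% of all and 23.6% of the longest genes.

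In VAL at 3 h, SPI1 and SPIB had an increased region, beside 17.7% of protein-coding genes, and FLI1 and ETV6 a decreased one, beside 5.12% of all and 13.6% of the longest genes. In VAL at 8 h, 5 factors had an increased region, SPI1, SPIB, SPIC, ELF1 and ETV6, beside 37.6% of protein-coding genes. A decreased region was found in 5 factors as well, ETS1, ELF1, FLI1, ETV6 and GABPA, beside 14.6% of all and 38.5% of the longest genes. Of the 5 factors with a decreased region in VAL at 8 h, 4 were these long genes.

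Counted by region, OCI-LY3 had 4 increased and 1 decreased region at 3 h, which is 80.0% increased with an exact 95% binomial interval of 28.4 to 99.5%, where 52.5% of all called regions were increased. At 8 h OCI-LY3 had 7 increased and 1 decreased, or 87.5% (interval 47.3 to 99.7%), beside 55.8% of all. VAL had 2 increased and 2 decreased at 3 h, or 50% (interval 6.76 to 93.2%), beside 66.5% of all. At 8 h VAL had 8 increased and 6 decreased, or 57.1% (interval 28.9 to 82.3%), beside 54.6% of all. The share over all regions lay inside the interval in each of the 4 comparisons. These intervals are wide because each rests on 4 to 14 regions, they cover counting error only, and neighbouring regions are not independent.

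**Figure D3:**
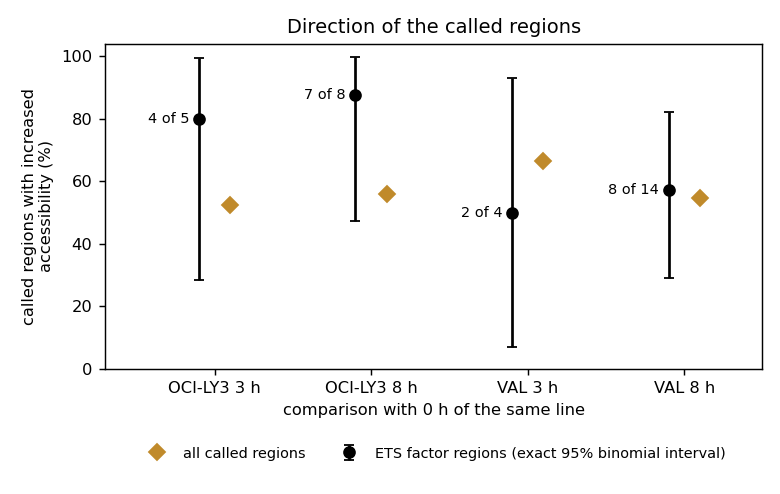
Percentage of called regions that had increased accessibility in each comparison with 0 h of the same line, for the ETS factor genes (black points, bars are exact 95% binomial intervals, counts beside the points) and for all called regions (diamonds). Every interval spans the value of all called regions, from 52.5 to 66.5%.

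The lines have separate 0 h libraries, and their lists were compared region by region. At 3 h, 2 of the 4 increased regions of OCI-LY3 and 2 of the 2 of VAL were the same, the promoter regions of SPI1 and SPIB. At 8 h, 4 of the 7 of OCI-LY3 and 4 of the 8 of VAL were shared: these 2 promoters, the region before SPIB and the last exon of ELF1. Over all increased regions, the shared ones made up 39.4% of the OCI-LY3 list and 20.6% of the VAL list at 3 h, and 53.3% and 20.9% at 8 h.

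No decreased region of an ETS factor gene was shared between the lines. The OCI-LY3 and VAL lists held 1 and 2 such regions at 3 h and 1 and 6 at 8 h. Over all decreased regions, the shared ones made up 16.5% of the OCI-LY3 list and 15.5% of the VAL list at 3 h, and 31.6% and 11.8% at 8 h. The ETS factor counts are too small to set against these shares. The difference between the lines itself was not tested, since no value per library was used.

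Per length of window, SPIB was the densest of the 10 genes, with 3 regions in 22.4 kb or 13.4 regions per 100 kb, above 98.4% of protein-coding genes. This rank rests on the regions over the POLD1 and MYBPC2 start sites: with its promoter region alone SPIB had 4.47 per 100 kb, below SPIC. SPIC followed with 4.62 regions per 100 kb, then SPI1 with 2.97 and ELF1 with 2.87. The remaining genes with a region lay between 1.17 for ELK3 and 2.09 for GABPA, and ETV6, despite its 5 regions, had 1.95. The median over all protein-coding genes was 1.02 and the upper quartile 3.73. Apart from SPIB and SPIC no factor passed the upper quartile, and the order of genes with 1 region each follows the length of their windows.

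**Figure D4:**
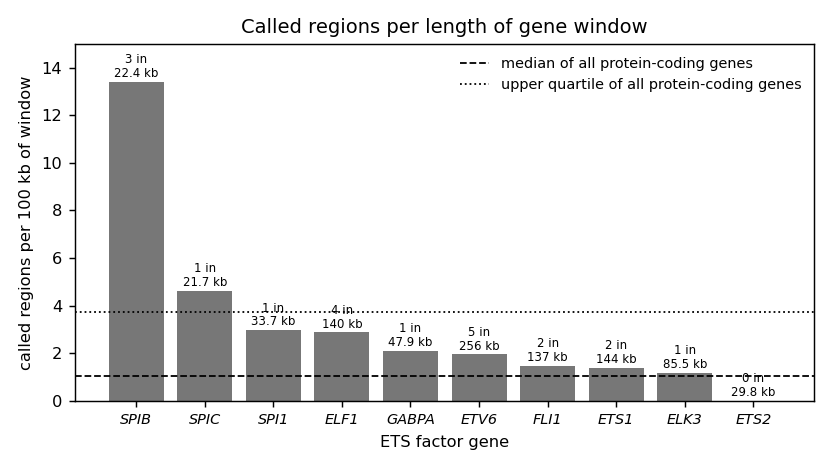
Called regions per 100 kb of gene window for each ETS factor gene (bars from 0), with the count and window length above each bar and lines for the median and upper quartile of all protein-coding genes. SPIB, at 13.4 regions per 100 kb, stands apart with its neighbours' start sites included, and SPIC at 4.62 is the only other gene above the upper quartile.

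The yes or no calls of a gene over the 8 lists form a pattern that can be looked up in other genes. SPI1 and SPIB share theirs, increased in all 4 comparisons and decreased in none, with each other and with many genes: 1117 genes besides each of them, or 5.54%, had it. The pattern of SPIC was found in 2668 other genes, that of GABPA in 1116, ETS1 in 334, FLI1 in 252, ELK3 in 194 and ELF1 in 22. ETV6 was called in 6 of the 8 lists, and no other protein-coding gene had the same calls. Such a pattern needs several regions, and ETV6 had 5 in a window of 256 kb. Its pattern was not set against genes of like length.

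The ETS factor regions differed in base composition among themselves. The increased regions had a median width of 1460 bp (range 541 to 2623 bp) and a median of 48.2% G and C bases (range 38.7 to 68.0%). All increased regions had medians of 1320 bp and 56.2%. The decreased ETS factor regions had medians of 1530 bp (range 606 to 2883 bp) and 44.3% (range 38.5 to 59.2%), beside 1300 bp and 41.4% for all decreased regions. SPI1 and SPIB make up the G and C rich end: the SPI1 region and the 3 SPIB regions had between 60.5 and 68.0%, and the FLI1 promoter region had 59.2%. Each of the other 15 regions had 50% or less.

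**Figure D5:**
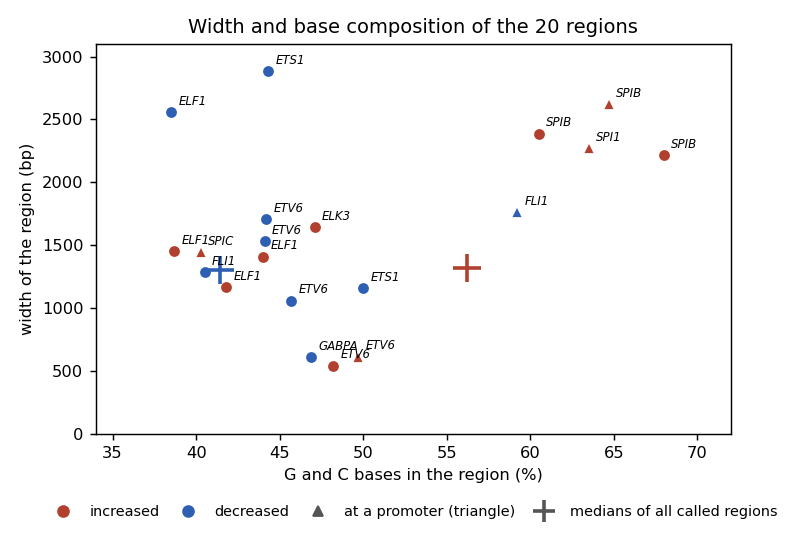
Width in bp against the percentage of G and C bases for the 20 called regions, red for increased and blue for decreased accessibility, triangles for regions at a promoter, with plus signs at the medians of all increased and all decreased regions. The SPI1 and SPIB regions and the FLI1 promoter region lie at 59.2% and above, apart from the other 15 regions at 50% or less.

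Short motifs were searched as exact letters on both strands in the central 200 bases of each region. The ETS consensus CCGGAAGT and the PU.1-type sequence GAGGAAGT, which share the letters GGAAGT, were found in 0 of the 20 regions, where 1.18% and 2.81% of all 26369 regions held them. The ETS-IRF composite GGAANNGAA, a form at which PU.1 or Spi-B sits beside IRF4 or IRF8, was found in 1, the ETV6 region in intron 2 that decreased in VAL at 3 h, as GGAAGGGAA. It was found in 6.37% of all regions. The AP-1 site TGANTCA was found in 2 regions, the intronic region of FLI1 and the last exon of ETV6, both decreased, beside 7.78% of all decreased regions.

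The CRE TGACGTCA, the RUNX site TGTGGTTT and the CTCF consensus were each found in 0 of the 20, beside 0.406%, 2.32% and 2.09% of all regions. The bare core GGAA was present in 11 of 11 increased and 7 of 9 decreased regions, beside 83.7% and 87.2%. With shares this low over all regions, nothing follows about the factors from 0 matches in 20 regions.

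Beyond these 10, of 18 other ETS family genes, 10 had a called region in some list, beside 58.2% of all protein-coding genes. In OCI-LY3 at 3 h, 1 of the 18 had an increased and 0 a decreased region, where 11.2% and 5.97% of all protein-coding genes did, and at 8 h the counts were 5 and 2, beside 19.7% and 8.81%. In VAL they were 3 and 0 at 3 h, beside 17.7% and 5.12%, and 5 and 2 at 8 h, beside 37.6% and 14.6%. ELK4, ERF, ETV1 and ETV2 were those called in both lines. ETV1, which is rearranged in prostate cancer, had 1 decreased region in each line at 8 h, whereas ELK4, a partner of serum response factor, and ERF, a repressor controlled by ERK, had increased regions in both lines at 8 h. ETV2, which specifies blood and vessel precursors, had 1 increased region in all 4 comparisons. ERF and ETV2 lie on chromosome 19, where almost all called regions were increased.

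Among 10 partners of ETS factors, 9 had a called region, beside 58.2% of all protein-coding genes and 76.0% of those with the longest windows. EBF1, PAX5 and RUNX1 have such long windows, of 414, 211 and 1230 kb. In OCI-LY3, increased regions were found for 4 of them at 3 h and 8 at 8 h, beside 11.2% and 19.7% of all genes, and decreased regions for 3 and 2, beside 5.97% and 8.81%. In VAL, increased regions were found for 5 at 3 h and 7 at 8 h, beside 17.7% and 37.6%, and decreased regions for 0 and 2, beside 5.12% and 14.6%. IRF8, which binds composite sites with PU.1, had 5 increased regions, with 2 of them called in OCI-LY3 at 3 h, 3 at 8 h, 2 in VAL at 3 h and 5 at 8 h, and its promoter was increased in all 4 comparisons. The promoters of CBFB, the common partner of RUNX factors, and of GABPB1, the partner of GABPA, were increased in all 4 comparisons as well. TCF3, which encodes the E2A proteins, had 5 increased regions, with 2, 3, 4 and 5 of them called in these comparisons in turn, and it lies on chromosome 19 like SPIB.

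EBF1, a factor that fixes B-cell identity, moved the other way in VAL, with 6 of its 9 regions decreased at 8 h. Its window is 414 kb long, and 38.5% of the genes with the longest windows had a decreased region then. In OCI-LY3 it had 2 decreased regions at 3 h, and 1 increased and 1 decreased at 8 h. RUNX3 had 1 decreased region in OCI-LY3 at 3 h but 2 increased at 8 h, and in VAL 2 increased at 3 h and 4 at 8 h. RUNX1 had 1 increased region in OCI-LY3 at 8 h, and 2 increased and 1 decreased in VAL at 8 h. PAX5, which holds cells to the B lineage, was called in OCI-LY3 alone. It had 7 regions, with 5 decreased at 3 h, its promoter among them, and 2 decreased and 1 increased at 8 h. The 1 partner with no called region was IRF4. PAX5 and IRF4 are named here after their values were seen.

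Of 7 B-cell genes with known ETS sites, 6 had a called region, beside 58.2% of all protein-coding genes. CD79A, a chain of the B-cell receptor whose promoter binds ETS1 with PAX5, had increased regions, 1 in OCI-LY3 at 8 h, 2 in VAL at 3 h and 2 at 8 h, and it too lies on chromosome 19. MS4A1, which encodes CD20, had 1 increased and 1 decreased region in OCI-LY3 at both times and 1 decreased region in VAL at both times. SYK, the kinase next to the B-cell receptor, had 1 decreased region in each of the OCI-LY3 comparisons, at different places, and 1 increased region in VAL at 8 h. These lists are short, and their counts were not set against each other by a test.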

How the data were processed

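ATAC-seq libraries of OCI-LY3 and VAL cells were processed by the authors: reads were aligned to hg19 with Bowtie2, mitochondrial, non-unique and duplicate reads were removed, MACS2 called peaks per sample, bedtools merged them and counted reads, and DESeq2 compared 3 h and 8 h with 0 h. Calls needed a fold change over 1.5 and an adjusted p limit, stated as 0.01 in the methods and 0.05 in a figure legend, so the limit behind the lists is uncertain. The labels give libraries of both protocols, while the methods describe Fast-ATAC, and which libraries were compared is not stated. The transposase shift and the tool versions of these ATAC-seq steps were not given in the sources used here. The supplement gives versions of Bowtie2 and MACS2 for its ChIP-seq and super-enhancer steps alone.

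The deposited files hold coordinates of regions (chromosome, 0-based start, end) in 8 lists, with 0 columns of values per sample. Starts were moved to 1-based. Regions of different lists had equal coordinates or did not touch, and 0 ended beyond a GRCh37 chromosome. Windows, positions, widths, base composition and motif matches were computed in Python 3.11.15 with pandas 2.3.3 and scipy 1.17.1 and were tested on simulated regions and sequences. The core GGAA was added as a motif after the data were seen. Figures used matplotlib 3.10.9.

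All 10 genes are named. Of the other lists, genes called in both lines were named, up to 6 a list by number of regions, with GABPB1 tied with CBFB. The genes, rule and lists were chosen with earlier results of these data known.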

Additional observations from a re-analysis of the deposited data

How the results depend on the processing

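A window of 50 kb in place of 10 kb raised the number of ETS factor regions to 10 in OCI-LY3 at 3 h, 15 at 8 h, 8 in VAL at 3 h and 28 at 8 h, and gave 10 of 10 genes a region, with 4 for ETS2, beside 77.1% of all protein-coding genes. Windows of 5 kb or start sites of basic transcripts alone changed no count. Keeping regions whose nearest coding start site was that of the ETS factor removed 2 of the 3 SPIB regions and the GABPA region and left 8 genes with a region. Without ETV6 the share increased in OCI-LY3 at 3 h became 100%. Without SPIB, the only 1 of these genes on chromosome 19, the share in VAL was 33.3% at 3 h and 45.5% at 8 h. These shares rest on few regions. The 66.5% and 54.6% of all called regions keep chromosome 19, so the sides are unlike. The 100% without ETV6 lies above the interval of that comparison, as any set with no decreased region must, since that interval ends at 99.5%. The other alternatives for the share stayed inside the intervals given above. A promoter of 2 kb gave 2 decreased promoter regions in place of 1, and 5 increased ones in place of 4.

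Over whole regions, GAGGAAGT was found in 2 of 11 increased and 3 of 9 decreased regions (10.3% and 14.5% of all increased and decreased regions), GGAANNGAA in 2 and 4 (26.5% and 36.0%), and TGANTCA in 4 and 6 (24.5% and 37.3%). With 1 mismatch in the central 200 bases, CCGGAAGT was found in 1 and 1 (14.4% and 9.08%), GAGGAAGT in 4 and 2 (22.4% and 27.7%), GGAANNGAA in 7 and 5 (46.8% and 59.6%), TGANTCA in 6 and 6 (50.8% and 67.4%), TGACGTCA in 2 and 2 (5.58% and 5.02%), and TGTGGTTT in 1 and 4 (17.0% and 27.8%).

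No paired analysis was possible because the lists hold no values per library. For the same reason the fits leaving out each replicate and the stricter threshold were not run. Calls are limited by the depth of libraries whose totals were not used here, and a region near the calling limit can be listed at 1 time or line and missed at another.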
